A study of Mus musculus with 16 samples.

Results

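Regions that carry H3K4me3 and H3K27me3 together were examined in immortalized mesenchymal stem cell (MSC) lines of the mouse, adult stromal cells that grow like fibroblasts. A region was an H3K4me3 peak of WT replicate 2 that shared 1 bp or more with an H3K27me3 peak of the same genotype and number, on chromosomes 1 to 19. Of 17755 H3K4me3 peaks, 1949 met this rule (11.0%, 95% Wilson interval 10.5% to 11.4%), and they touched 1970 of 14523 H3K27me3 peaks (13.6%). The regions were therefore chosen by the peaks of WT replicate 2, and what these lists show at them is given as a description. KO replicate 2 and both replicates 1 had no part in the choice.

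The WT lines carried Dicer f/f, a floxed but intact allele, and the KO lines Dicer -/-, both on C57BL/6. Dicer trims hairpin precursors to their mature microRNA form. All lines were monoclonal and immortalized, and the labels do not say whether replicates 1 and 2 came from separate cultures or clones, so a p-value measures only the spread between these samples. Peaks were called against whole-cell extract. Each of 3 marks had 2 libraries per genotype. A pair of H3K4me3 and H3K27me3 libraries of the same genotype and number is called a library pair here, which gives 4 pairs. No gene annotation of the files' build, mm9, was used, so regions are named by position and no cell marker could be checked.

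H3K4me3 is laid down at CpG-rich promoters by the COMPASS and MLL methyltransferases and marks active or poised genes. H3K27me3 is laid down by Polycomb repressive complex 2 and marks promoters held silent. Promoters with both are called bivalent. They were first described in embryonic stem cells at developmental regulators such as the Hox genes, which are silent there but can be switched on during differentiation. H3K36me3 is deposited along the bodies of genes by SETD2, which travels with elongating RNA polymerase. Peak lists from a population of cells cannot show whether both marks sat on the same allele or in different cells.

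The lists differed in size, which bears on every comparison below. On the autosomes H3K4me3 peaks numbered 12314 and 17755 in WT replicates 1 and 2 and 16267 and 23215 in KO. H3K27me3 peaks numbered 2533 and 14523 in WT and 698 and 17471 in KO. Both H3K27me3 lists of replicate 1 were thus much shorter than those of replicate 2. The files give peaks and no read counts, so depth was unknown, and a region absent from a list may lie just under its threshold.

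In WT replicate 2 the most frequent layout was a short H3K4me3 island within a longer H3K27me3 domain. The regions had a median H3K4me3 width of 1652 bp (quartiles 1218 and 2300 bp), against 2248 bp for the other H3K4me3 peaks of the list. The H3K27me3 peaks they touched had a median width of 3427.5 bp, against 1360 bp for H3K27me3 peaks without H3K4me3. A rule of overlap favours long H3K27me3 peaks, so nothing is read from this gap. Of the 1949 regions, 1018 (52.2%) lay wholly inside 1 H3K27me3 peak. A further 742 (38.1%) crossed an edge of the domain, 114 (5.85%) bridged several H3K27me3 peaks, and 75 (3.85%) spanned a whole H3K27me3 peak. At 463 regions (23.8%) the centre of H3K4me3 lay outside the H3K27me3 peak it shared most with. Most domains held a single region: 1885 had 1, 74 had 2 and 11 had 3.

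The place of the inside islands within the domain varied. An island wholly inside cannot have its centre at the domain's edge, so the class itself limits these values. The centre fell in the central 20% of the domain length at 499 of 1018 regions (49.0%) and in the outer 20% at either end at 70 (6.88%). H3K27me3 reached at least 1 kb beyond H3K4me3 on both sides at 601 of them (59.0%), and the median distance to the nearer domain edge was 1257.5 bp. The inside islands were the narrowest, with a median of 1420 bp in domains of 5611.5 bp. Regions across an edge had medians of 1949.5 bp of H3K4me3 and 2271.5 bp of H3K27me3, and 45.1% of such an H3K4me3 peak was covered. Where several H3K27me3 peaks were bridged, the gap between them was short, with a median of 243 bp over 117 gaps and a range of 5 to 2580 bp.

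At the border of the rule, 30 regions shared 100 bp or less with H3K27me3, and 23 H3K4me3 peaks outside the rule lay within 100 bp of it. The smallest overlaps were 2 bp at chr9:95648805-95651406 and 7 bp at chr7:28120728-28122251. Just outside, chr4:41668906-41670828 and chr8:85855091-85857532 touched an H3K27me3 peak with a gap of 0 bp.

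The extremes of width show how differently the marks can share a locus. Both were chosen with their values in view. The widest H3K4me3 peak, chr6:52186167-52211905, ran over 25739 bp and held only 1166 bp of H3K27me3 in WT replicate 2. Over this interval H3K4me3 covered 18115 bp in WT replicate 1 and 22773 and 15146 bp in KO replicates 2 and 1. H3K27me3 covered 0 bp in WT replicate 1 but 8964 and 6029 bp in KO, so both KO lists held more of it here than both WT lists. The reverse layout was chr11:96109987-96219988, an H3K27me3 domain of 110002 bp with 1 H3K4me3 island of 1260 bp. Within it H3K4me3 covered 856 bp in WT replicate 1 and 4186 and 1389 bp in KO replicates 2 and 1. H3K27me3 covered 90594 bp in WT replicate 1 and 69015 and 9577 bp in KO replicates 2 and 1, less than in either WT list.

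Read by their own lists, the other library pairs placed H3K4me3 mostly at the edge of H3K27me3 and not inside it. H3K4me3 peaks inside an H3K27me3 peak made up 305 of 1236 in KO replicate 2 (24.7%, 95% Wilson interval 22.4% to 27.2%). They were 30 of 185 in WT replicate 1 (16.2%, 11.6% to 22.2%) and 3 of 41 in KO replicate 1 (7.32%, 2.52% to 19.4%). Edge overlaps made up 59.0%, 72.4% and 82.9% of these pairs' overlaps. WT replicate 2 stood apart from all 3, and KO replicate 2 lay above WT replicate 1, so the genotypes were not separated. When H3K27me3 peaks less than 3 kb apart were joined, the inside shares were 59.4% in WT replicate 2, 43.0% in KO replicate 2, 35.8% in WT replicate 1 and 27.3% in KO replicate 1. When only overlaps over at least 50% of the H3K4me3 peak counted, they were 68.4%, 46.3%, 39.5% and 27.3%. The order of the 4 pairs was the same under both alternatives.

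**Figure D1:**
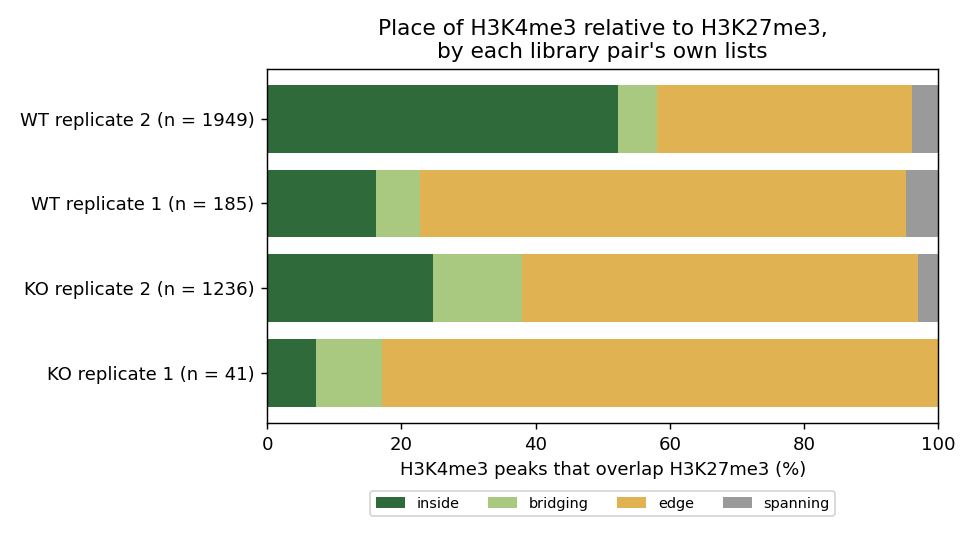
Bars give the share (%) of H3K4me3 peaks that overlap H3K27me3 in each library pair, split by place: inside 1 H3K27me3 peak, bridging several, crossing an edge, or spanning a whole peak. WT replicate 2 has 52.2% inside, the other pairs 7.32% to 24.7%.

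Within classes of domain width both replicate 2 lists still differed. Among overlaps with H3K27me3 peaks of 5 to 10 kb, 396 of 485 H3K4me3 peaks (81.6%) were inside in WT replicate 2 and 107 of 181 (59.1%) in KO replicate 2. In peaks of 2 to 5 kb the shares were 401 of 790 (50.8%) and 148 of 543 (27.3%). WT replicate 1 had 10 of 13 inside (76.9%) in the 5 to 10 kb class and 15 of 49 (30.6%) in the 2 to 5 kb class. KO replicate 1 had too few overlaps with wide domains for such a split.

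The profile of H3K27me3 around the 1949 centres showed the same layout. In WT replicate 2, H3K27me3 covered 76.2% of the centres and 73.1% and 71.0% of the points 1 kb before and after. In KO replicate 2 it covered 28.4% of the centres and 33.8% and 32.7% of the flanks. In WT replicate 1 the values were 19.7%, 23.8% and 21.5%, and in KO replicate 1 they were 0.770%, 3.23% and 2.46%. H3K27me3 thus dipped over the H3K4me3 centre in 3 of 4 libraries, and only WT replicate 2, which chose the regions, had no dip. With the centres of each pair's own overlaps, coverage at the centre divided by the mean of both flanks was 0.809 in KO replicate 2, 0.754 in WT replicate 1, 0.550 in KO replicate 1 and 1.06 in WT replicate 2. H3K27me3 ran on past the islands, with 20.6% and 19.7% of points covered 5 kb away in WT replicate 2 and 12.7% and 12.4% in KO replicate 2.

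**Figure D2:**
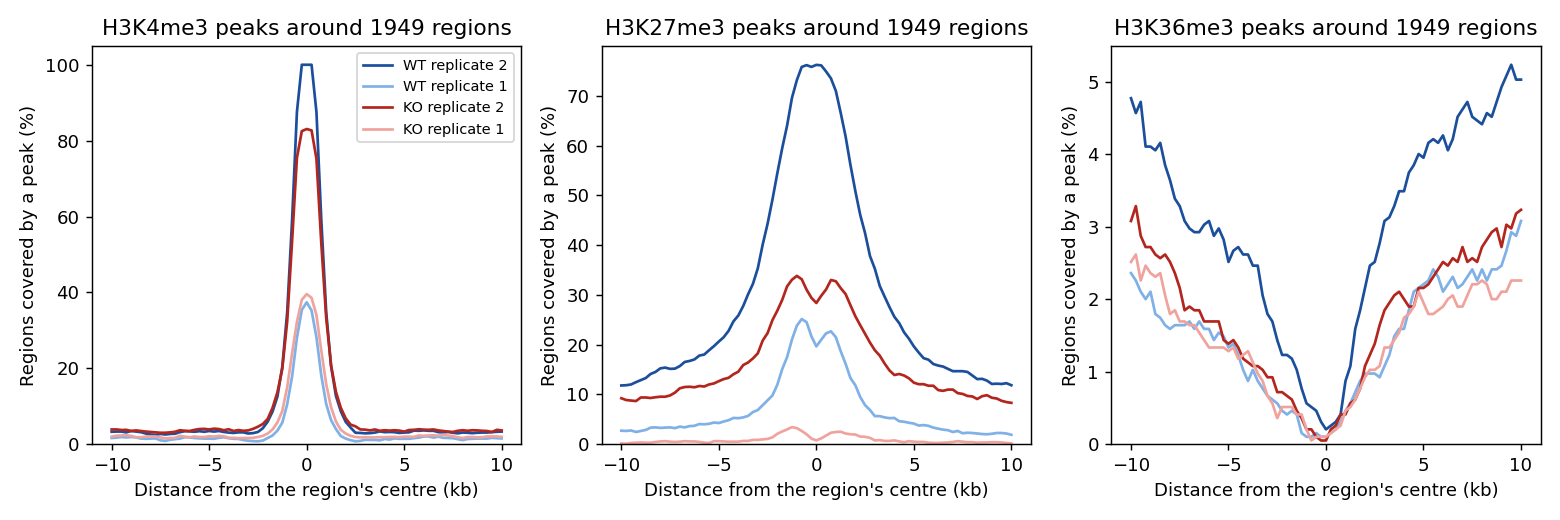
Each line gives the share (%) of the 1949 regions covered by a peak of 1 library, by distance (kb) from the region's centre, for H3K4me3, H3K27me3 and H3K36me3 on separate vertical scales. H3K27me3 has a dip at the centre in WT replicate 1 and both KO libraries, and H3K36me3 covers at most 4 of the 1949 centres in each library.

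KO replicate 2 kept H3K4me3 at most of the regions and H3K27me3 at about as many as it lacked it. Its lists held both marks at 832 regions (42.7%, 95% Wilson interval 40.5% to 44.9%) and H3K4me3 alone at 802 (41.1%). H3K27me3 alone was left at 110 (5.64%) and neither mark at 205 (10.5%). In all, 1634 regions (83.8%) had H3K4me3, below the 14959 of 15806 (94.6%) among the other H3K4me3 peaks of WT replicate 2. H3K27me3 was listed at 942 regions (48.3%).

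The replicate 1 lists held both marks at few of the regions. In WT replicate 1 both marks met 218 (11.2%, 95% Wilson interval 9.86% to 12.7%), H3K4me3 alone 574 (29.5%), H3K27me3 alone 510 (26.2%) and neither 647 (33.2%). In KO replicate 1 both marks met 54 (2.77%, 2.13% to 3.60%), H3K4me3 alone 780 (40.0%), H3K27me3 alone 64 (3.28%) and neither 1051 (53.9%). H3K4me3 was listed at 792 regions (40.6%) in WT replicate 1, against 66.7% of the other H3K4me3 peaks, and at 834 (42.8%) in KO replicate 1, against 79.8%. The shares at the regions were thus alike, but the KO list lay further below its level at other peaks. H3K27me3 was listed at 728 (37.4%) in WT replicate 1 and 118 (6.05%) in KO replicate 1, whose whole lists were of unlike length. With peaks of score 160 or more, both marks remained at 5.69% in WT replicate 1 and 1.58% in KO replicate 1, and with at least 50% of the H3K4me3 peak covered at 4.77% and 0.336%.

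**Figure D3:**
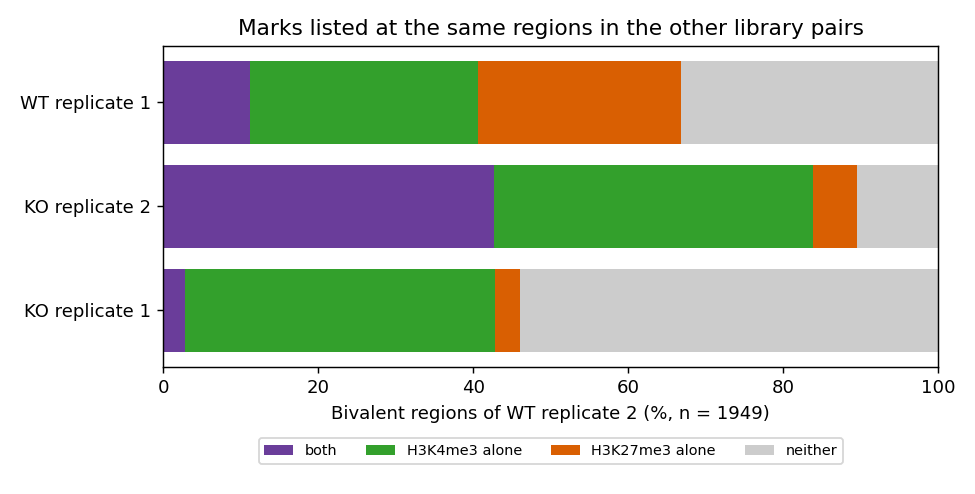
Bars give the share (%) of the 1949 bivalent regions of WT replicate 2 at which each other library pair listed both marks, H3K4me3 alone, H3K27me3 alone or neither. KO replicate 2 lists H3K4me3 at 83.8% and both marks at 42.7%.

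The other lists held H3K27me3 at almost none of the remaining H3K4me3 peaks. Outside the 1949 regions, 2 of 15806 H3K4me3 peaks met H3K27me3 in WT replicate 1 and 10 in KO replicate 1, against 273 (1.73%) in KO replicate 2. By the rule these peaks lack H3K27me3 in WT replicate 2, and both replicate 1 lists of H3K27me3 were short. The low counts are therefore favoured by the choice and the lists, and nothing is read from them. Both marks were listed in every other pair at 29 of the 1949 regions, in KO replicate 2 only at 651 and in WT replicate 1 only at 61. At 1055 regions no other pair listed both.

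Inside islands had H3K27me3 listed more often than regions across an edge, and H3K4me3 less often, in all 3 other pairs. Of the 1018 inside islands KO replicate 2 listed H3K27me3 at 607 (59.6%) and H3K4me3 at 788 (77.4%). Of the 742 across an edge it listed H3K27me3 at 257 (34.6%) and H3K4me3 at 673 (90.7%). WT replicate 1 had the same order with a wider gap, with H3K27me3 at 58.1% and 14.4% and H3K4me3 at 20.2% and 61.9%. In KO replicate 1 H3K4me3 was listed at 25.8% of inside islands and 60.9% of edge regions, and H3K27me3 at 7.86% and 3.64%. Inside islands were also narrower, and narrow H3K4me3 peaks were listed less often. They lay in wider domains, with a median of 5611.5 bp against 2271.5 bp for edge regions. H3K27me3 was listed more often in wider domains in all 3 other pairs. The part of either width in this order was not tested.

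The width of the domain in WT replicate 2 went with what the other lists held. In domains under 2 kb KO replicate 2 had both marks at 95 of 458 regions (20.7%) and H3K4me3 alone at 294 (64.2%). In domains of 10 kb or more it had both at 153 of 216 (70.8%) and H3K4me3 alone at 33 (15.3%). H3K4me3 itself was listed by KO replicate 2 at 84.9% and 86.1% of regions, so in that pair the classes differed in H3K27me3. In WT replicate 1 H3K27me3 alone rose from 3 of 458 regions (0.655%) in the narrowest class to 142 of 216 (65.7%) in the widest. Both marks differed there: any H3K27me3 rose from 2.18% to 87.0%, and any H3K4me3 fell from 54.6% to 25.9%. In KO replicate 1 any H3K4me3 fell from 54.8% to 40.3%.

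H3K4me3 was listed less often at regions with H3K27me3 than at those without it in WT replicate 1, and more often in both KO pairs. WT replicate 1 had H3K4me3 at 218 of 728 regions with H3K27me3 (29.9%) and at 574 of 1221 without it (47.0%). The median H3K4me3 width in WT replicate 2 was alike in these sets, 1627.5 and 1678 bp. By domain width the WT replicate 1 shares were 7 of 10 and 54.2% under 2 kb, 38.9% and 42.4% at 2 to 5 kb, 26.3% and 45.6% at 5 to 10 kb, and 24.5% and 35.7% at 10 kb or more. The gap was thus small in the 2 to 5 kb class, which held the most regions, and turned under 2 kb, where only 10 regions had H3K27me3. KO replicate 2 had H3K4me3 at 832 of 942 regions with H3K27me3 (88.3%) and at 802 of 1007 without it (79.6%), with the same order in all 4 width classes. KO replicate 1 had 54 of 118 (45.8%) and 780 of 1831 (42.6%). Its regions with H3K27me3 had wider H3K4me3 peaks in WT replicate 2, with medians of 1972 and 1632 bp, and the part of width was not tested. WT replicate 2 gives no such value, since every region has both marks there. WT thus rests on 1 pair, and the genotypes cannot be compared. Regions are not replicates, so no test was made.

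H3K4me3 at the bivalent regions was listed less often than at other H3K4me3 peaks of the same width class. The peaks of WT replicate 2 were divided into quartiles of width for this. Score was not matched. In WT replicate 2, 33.2% of bivalent regions had an H3K4me3 score of 3100 or more, against 59.2% of the other peaks. The part of score in the lower listing was not tested. In the second quartile, 1344 to 2161 bp, H3K4me3 of KO replicate 1 was listed at 335 of 741 bivalent regions (45.2%) and 2876 of 3696 other peaks (77.8%). In WT replicate 1 the shares were 41.2% and 58.5%, and in KO replicate 2 they were 88.9% and 95.6%. Bivalent regions were lower in all 4 quartiles of all 3 libraries. In the widest quartile the shares were 87.4% and 99.0% in WT replicate 1, 97.7% and 99.8% in KO replicate 2, and 76.2% and 98.3% in KO replicate 1.

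**Figure D4:**
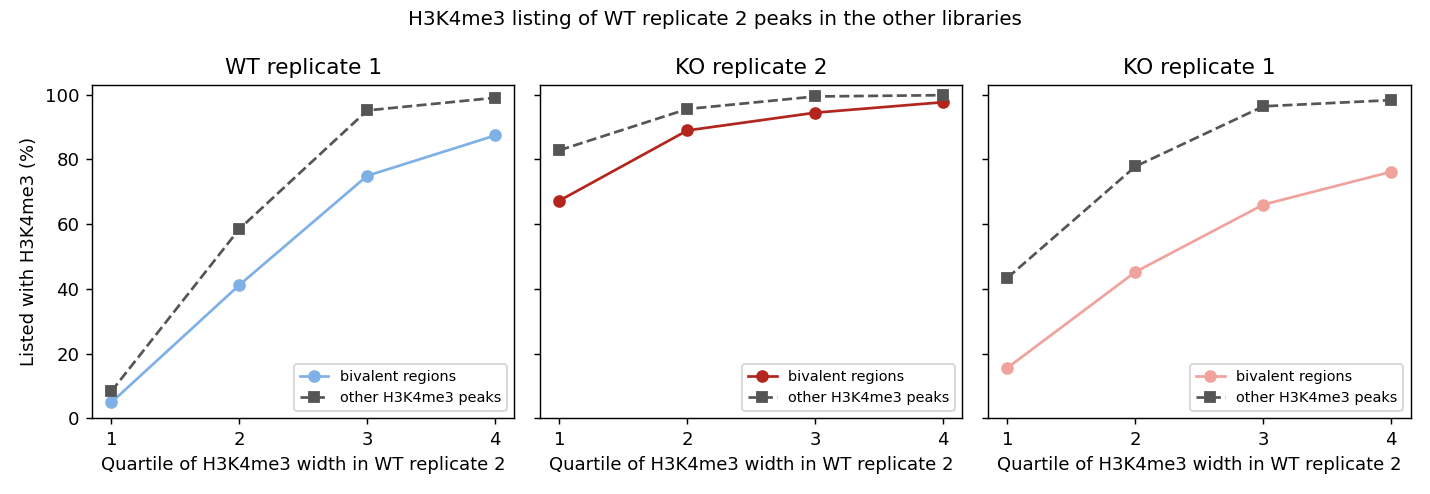
Points give the share (%) of WT replicate 2 H3K4me3 peaks that were listed again in each other H3K4me3 library, by quartile of peak width, for bivalent regions and other peaks. Bivalent regions lie below the other peaks at every point, for example 45.2% against 77.8% in the second quartile of KO replicate 1.

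Where KO replicate 2 listed H3K4me3, its length hardly differed from WT replicate 2. The median ratio of lengths was 1.01 over 1634 regions (quartiles 0.872 and 1.15), against 1.04 over the other peaks. Regions with H3K4me3 alone in KO replicate 2 had a ratio of 1.04, and those that kept both marks 0.982. A KO replicate 2 peak at least 1.5 times as long as that of WT replicate 2 was found at 81 of 802 (10.1%) and 52 of 832 (6.25%). In replicate 1 the ratios were 0.610 in WT and 0.772 in KO, against 0.720 and 0.819 over the other peaks.

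H3K27me3 domains with an H3K4me3 island were set beside domains of like width without one. Of domains of 5 to 10 kb, WT replicate 1 listed H3K27me3 at 350 of 465 with an island (75.3%) and at 359 of 843 without (42.6%). KO replicate 1 listed 62 (13.3%) and 57 (6.76%). KO replicate 2 listed 377 (81.1%) and 661 (78.4%), and covered 48.9% and 48.2% of their length. In narrow domains KO replicate 2 had the reverse order: under 2 kb it listed 124 of 525 with an island (23.6%) and 3033 of 8477 without (35.8%). Domains with an island were thus listed more often than the others in both replicates 1 in all 4 width classes. In KO replicate 2 this order was seen from 5 to 10 kb only, with 94.7% and 94.9% at 10 kb or more.

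At 848 regions the H3K4me3 peak of KO replicate 2 itself overlapped H3K27me3 of KO replicate 2, which let the layout be followed region by region. Of the 519 that were inside in WT replicate 2, 222 (42.8%) were inside in KO replicate 2, 193 (37.2%) crossed an edge and 93 (17.9%) bridged several H3K27me3 peaks. Of the 256 at an edge in WT replicate 2, 222 (86.7%) were again at an edge and 12 (4.69%) inside. The covered share of the H3K4me3 peak was lower in KO replicate 2 at 522 of these regions, higher at 104 and equal at 222, with medians of 100% in WT replicate 2 and 60.1% in KO replicate 2. In WT replicate 1 it was lower at 138 of 172 regions and higher at 13, with a median of 43.0%, so the shift was not limited to KO. The rule asked for overlap in WT replicate 2 and so favours high cover there.

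KO replicate 2 had 389 overlaps of its own that met none of the 1949 regions. At 254 of them (65.3%) WT replicate 2 listed H3K4me3 alone, at 104 (26.7%) H3K27me3 alone, at 27 (6.94%) neither and at 4 (1.03%) both. In the other direction, KO replicate 2 listed both marks at 832 of the 1949 regions and lacked 1 mark or both at the rest. Between the replicates 2, regions with both marks in one genotype and not in the other were therefore found in both directions.

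Applied to every pair, the rule gave H3K4me3 peaks with H3K27me3 in 1.502% and 11.0% of H3K4me3 peaks in WT replicates 1 and 2 and in 0.252% and 5.32% in KO. The KO share was lower than the WT share of the same number in both replicates, by 2.58 and 1.04 on the log2 scale. The mean log2 difference of KO and WT was -1.81, with an exact two-sided permutation p of 0.667 (n = 2 per genotype), and 0.333 is the smallest p this design allows. The difference was within the spread between replicates. Without KO replicate 1 it was 0.39, in the opposite direction, without WT replicate 2 it was -0.38, without WT replicate 1 it was -3.24 and without KO replicate 2 it was -4.01.

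Difference lists name regions at which 1 library was enriched over another sample. No source used here names their control, and it was taken to be the matching library of the opposite genotype. The replicate 1 lists had no part in the choice of regions. An H3K27me3 difference peak of WT replicate 1 lay in 526 of the 1949 regions (26.99%), beside 2.97% of all 17755 H3K4me3 peaks of WT replicate 2. The regions were admitted for H3K27me3 in WT and the other peaks lack it there by the rule, so nothing is read from this gap. The KO replicate 1 list met 6 regions (0.308%), beside 0.0789% of all peaks. In replicate 2, whose WT list shares its library with the rule, the counts were 1475 for WT (75.7%, beside 8.39%) and 11 for KO (0.564%, beside 1.06%).

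H3K4me3 difference peaks at the regions went both ways. Those of WT replicate 1 lay in 241 regions (12.4%, beside 9.06% of all peaks) and those of KO replicate 1 in 244 (12.5%, beside 15.7%). Those of WT replicate 2 lay in 448 (23.0%, beside 6.84%) and those of KO replicate 2 in 158 (8.11%, beside 7.31%). In replicate 1 the WT share thus lay a little above its background and the KO share a little below, and from replicate 2 nothing is read. With scores of 160 or more the shares of regions were 8.09% for WT replicate 1 and 8.47% for KO replicate 1. The shares over all peaks were not computed at that score, so they cannot be set beside a background. A KO-higher H3K4me3 peak with a WT-higher H3K27me3 peak in both replicates was found at 32 regions, beside 32 of all 17755 peaks (0.18%). Both marks were WT-higher in both replicates at 9 regions, beside 9 of all peaks (0.0507%). All such peaks were thus among the regions, which the rule's H3K27me3 in WT favours. These counts use the replicate 2 lists, which share the rule's libraries, and describe the regions only. In both replicates, KO-higher H3K27me3 with either direction of H3K4me3 was found at 0.

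The replicate 1 difference lists, which come from other libraries, were read by the state in KO replicate 2. H3K4me3 difference peaks of KO replicate 1, found in 15.7% of all peaks, lay in 164 of the 802 regions with H3K4me3 alone in KO replicate 2 (20.4%), in 80 of the 832 with both marks (9.62%) and in none of the 110 and 205 others. H3K27me3 difference peaks of WT replicate 1 were found in 2.97% of all peaks. They lay in 16.8% of the regions with H3K4me3 alone, 36.5% with both marks, 41.8% with H3K27me3 alone and 41 of 205 with neither. The median domain width in WT replicate 2 was 2622, 5298.5, 6009.5 and 3068 bp for these states in the same order. The part of domain width in these shares was not tested.

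H3K36me3, the mark of transcribed gene bodies, was scarce around the bivalent regions in all 4 of its libraries. An H3K36me3 peak lay within 10 kb of 333 of 1949 regions in WT replicate 2 (17.1%), 207 in WT replicate 1 (10.6%), 241 in KO replicate 2 (12.4%) and 199 in KO replicate 1 (10.2%). Among the other H3K4me3 peaks of WT replicate 2 the shares were 59.1%, 48.0%, 48.7% and 42.4%. Bivalent regions were lower in 4 of 4 libraries, by a mean of 37.0 percentage points (difference -37.0 ± 4.05, SD, n = 4, exact two-sided sign-flip p = 0.125, the smallest that 4 libraries allow). H3K36me3 was not used to choose the regions. All 4 libraries were read at the same sets of peaks, so the SD and p describe the libraries only. The other peaks were wider, with a median of 2248 bp against 1652 bp, and 59.2% against 33.2% had a score of 3100 or more. By the rule they also lacked H3K27me3 in WT replicate 2. Width and score were not matched, and their part in the difference was not tested. Counted as direct overlap, the mean difference was -13.8 points, from 0.718% to 2.67% of regions against 10.8% to 23.2% of other peaks.

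**Figure D5:**
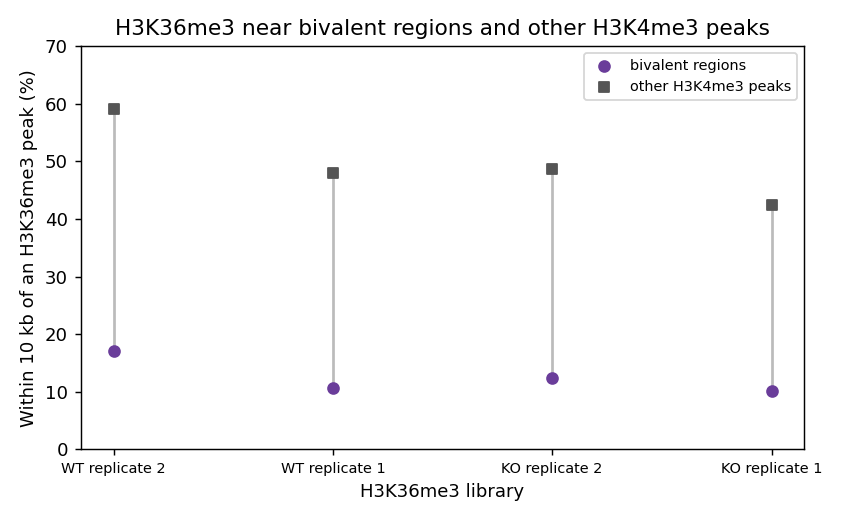
Points give the share (%) of bivalent regions and of other H3K4me3 peaks of WT replicate 2 that lay within 10 kb of an H3K36me3 peak, for each H3K36me3 library. Bivalent regions lie at 10.2% to 17.1%, other peaks at 42.4% to 59.1%.

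Among the 4 layouts H3K36me3 was scarcest around the inside islands. It lay within 10 kb of 5.70% to 9.72% of them over the 4 libraries, and of 16.3% to 25.6% of the regions across an edge. Regions that had H3K4me3 alone in KO replicate 2 were near H3K36me3 in 14.7% and 22.2% of cases in the WT libraries 1 and 2 and in 15.1% and 18.8% in the KO libraries 1 and 2. Those with H3K27me3 alone were near it in 2.73% to 4.55% over the 4 libraries. For those with neither mark in KO replicate 2 the shares were 4.39% and 4.88% in WT and 2.44% in each KO library.

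At 16 regions the marks overlapped in all 4 library pairs. The one in the widest domain, chr5:120873191-120891383, held an island of 1322 bp. Its H3K4me3 covered 724 and 1322 bp in WT replicates 1 and 2 and 1139 and 1186 bp in KO, and its H3K27me3 14659 and 18193 bp in WT and 2583 and 14307 bp in KO. H3K27me3 was shortest in KO replicate 1, whereas H3K4me3 was shortest in WT replicate 1. At chr3:30400544-30417728 H3K4me3 covered 3714 and 4022 bp in WT and 2670 and 3005 bp in KO, and H3K27me3 6774 and 17185 bp in WT and 1126 and 10828 bp in KO. At chr4:3853359-3867792 H3K4me3 was longer in KO than in WT of the same number, with 2139 and 3992 bp in WT and 3159 and 6677 bp in KO, beside 9677 and 12240 bp of H3K27me3 in WT and 8018 and 10930 bp in KO. The other named loci of this kind were chr4:8611996-8623516 and chr15:84679282-84689800. At the first, H3K27me3 covered 885 and 11521 bp in WT replicates 1 and 2 and 4121 and 11521 bp in KO. There KO lay above WT in replicate 1 and was equal to it in replicate 2. At the second, H3K27me3 covered 4279 and 10519 bp in WT and 1014 and 7835 bp in KO.

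Of the 4 widest domains with an island that had H3K4me3 alone in KO replicate 2, 3 held H3K27me3 of that library beside that island. Over all 802 such regions, 110 (13.7%) still had KO replicate 2 H3K27me3 elsewhere in the WT replicate 2 domain. The lengths below are of the whole locus, which can hold more H3K4me3 than that island. At chr14:122862962-122892812 an island of 617 bp in WT replicate 2 faced 2293 bp of H3K4me3 in KO replicate 2 and 0 bp in both replicates 1, while H3K27me3 went from 29851 to 16052 bp between the replicates 2 of WT and KO. At chr16:94077254-94104962 H3K4me3 covered 0 and 835 bp in WT and 1287 and 1942 bp in KO, and H3K27me3 18042 and 27709 bp in WT and 0 bp in both KO lists. Both KO lists were longer than both WT lists for H3K4me3 here, and H3K27me3 had the opposite order. The locus was chosen by its state in KO replicate 2, which favours this order in that library. At chr6:49153904-49180187 H3K4me3 covered 0 and 1836 bp in WT and 5354 and 11211 bp in KO, H3K27me3 16040 and 26284 bp in WT and 5780 and 14868 bp in KO, and H3K36me3 0 bp in WT and 2837 and 4339 bp in KO. No other locus named for its state or its differences had an H3K36me3 peak. The fourth, chr2:105498178-105526865, had H3K4me3 over 747 and 2902 bp in WT and 0 and 5141 bp in KO, so KO lay above WT in replicate 2 and below it in replicate 1.

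Among the regions with the longest overlap that lacked H3K4me3 in KO replicate 2, all but 1 also lacked it in WT replicate 1. Those with H3K27me3 alone were chr8:82578693-82583298, chr9:32337962-32354872 and chr15:68757864-68761262, with 3777, 3450 and 2873 bp of H3K4me3 in WT replicate 2. All 3 had 0 bp in WT replicate 1 and in both KO lists. Among regions with neither mark, chr11:63733204-63738838 and chr4:154008816-154018767 had 3363 and 3094 bp in WT replicate 2 and 0 bp in every other list, and chr5:120119759-120124288 had 4530 bp in WT replicate 2, 598 bp in WT replicate 1 and 0 bp in both KO lists. At 5 of these 6 loci WT replicate 2 was thus the only library with H3K4me3.

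The 32 regions with KO-higher H3K4me3 and WT-higher H3K27me3 in both replicates were led, by length of overlap, by chr4:57311099-57317109. There H3K4me3 covered 2775 and 3229 bp in WT replicates 1 and 2 and 3331 and 3672 bp in KO, and H3K27me3 1160 and 6011 bp in WT and 0 bp in both KO lists. At chr18:53619464-53639139 H3K4me3 covered 0 and 2966 bp in WT and 4926 and 4558 bp in KO replicates 1 and 2, with H3K27me3 over 7194 and 19676 bp in WT and 0 and 3487 bp in KO. At chr9:47335399-47344723 the values were 1160 and 2881 bp of H3K4me3 in WT, 2653 and 4566 bp in KO, 2357 and 9325 bp of H3K27me3 in WT and 0 bp in both KO lists. At all 3 loci both KO values of H3K27me3 lay below both WT values, which the choice by difference lists favours. At the first 2 both KO values of H3K4me3 lay above both WT values, and at the last KO replicate 1 lay below WT replicate 2. The loci were chosen for KO-higher H3K4me3 in both replicates, which favours this order too, so nothing is read from it.

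Bivalent regions were spread over every autosome and lay mostly alone. They made up 7.00% of H3K4me3 peaks on chromosome 16 and 14.0% on chromosome 4, the lowest and highest shares. When regions less than 100 kb apart were joined there were 1519 clusters, of which 1208 held a single region and 10 held 5 or more. The largest, chr17:36219692-36368906, had 9 islands, all inside H3K27me3. KO replicate 2 listed H3K4me3 at 8 of them and H3K27me3 at 8, WT replicate 1 at 3 and 6, and KO replicate 1 at 5 and 0. H3K27me3 covered 96.0 kb of this cluster in WT replicate 2 and 77.6 kb in KO replicate 2. Of the 11 domains with 3 islands, the first in genome order were chr2:38188099-38217146 and chr2:115893273-115901881, with 4978 and 2808 bp of H3K4me3 in WT replicate 2 and 2972 and 2359 bp in KO replicate 2.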

How the data were processed

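Peak lists of histone ChIP-seq were used from 12 ChIP libraries (H3K4me3, H3K27me3 and H3K36me3, WT and KO, 2 replicates each); the 4 whole-cell extract samples were not analysed here. The submitters' processing notes, per the labels, name Bowtie 0.12.7, MACS without a version, and the build mm9. The lists as deposited give every peak a score of 80 or more. No source used here states its formula, and it served as a filter and to describe the H3K4me3 peaks of WT replicate 2. Lists were made per library: 1 against whole-cell extract and 1 difference list. Starts in the files count from 0 and are printed from 1.

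Samples were grouped by their titles. Overlaps, on chromosomes 1 to 19, needed 1 bp and were computed with pandas 2.3.3 and NumPy 2.4.6, intervals of shares with SciPy 1.17.1; the code was tested on simulated data. A mark was listed at a region if a peak overlapped it. Intervals describe counting error alone, and nearby regions can depend on each other. The members, classes and lists were chosen with earlier results of these data known. Named loci are the union of a region and its H3K27me3 peak: the 5 with overlap of marks in all pairs and the 4 with H3K4me3 alone in KO replicate 2 by domain width, the 3 each with H3K27me3 alone, neither, or opposite differences by overlap length, and 2 domains with most regions. No locus had WT-higher H3K4me3 with KO-higher H3K27me3 in both replicates. The share per pair was compared by an exact permutation test and H3K36me3 by an exact sign-flip test. Alternatives were a score of 160, 50% cover, joining under 3 kb, other H3K36me3 distances and leaving out libraries. The 4 H3K36me3 difference lists were not used. No sequence is printed because no mm9 genome was used here.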

Additional observations from a re-analysis of the deposited data

How the results depend on the processing

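The number of regions was 1949, and 1489 to 1953 under the 3 alternatives of score, cover and joining. The mean log2 difference of the share was -1.81 and ran from -4.01 to 0.39 when 1 library pair was left out, turning only without KO replicate 1. With the replicate number as a block it was -1.81 as well, with an exact sign-flip p of 0.500, the smallest that 2 numbers allow. The H3K36me3 difference ran from -38.6 to -35.3 points without 1 library, was -13.8 points for overlap and -28.3 points within 50 kb, and was negative under every alternative.

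With scores of 160 or more, both marks were found at 39.4% of regions in KO replicate 2, 5.69% in WT replicate 1 and 1.58% in KO replicate 1. The inside share was 55.4% in WT replicate 2, 28.4% in KO replicate 2 and 0% in KO replicate 1. Difference peaks of replicate 1 lay in 18.1% (H3K27me3, WT), 0.0632% (H3K27me3, KO), 8.09% (H3K4me3, WT) and 8.47% (H3K4me3, KO) of regions. With at least 50% of the H3K4me3 peak covered, both marks were found at 32.3%, 4.77% and 0.336% in the same order, and the inside share was 68.4% in WT replicate 2, 46.3% in KO replicate 2, 39.5% in WT replicate 1 and 27.3% in KO replicate 1, fewer overlaps being counted by construction. Difference peaks of replicate 1 lay in 34.2% (H3K27me3, WT), 0.0672% (H3K27me3, KO) and 10.5% (H3K4me3, WT). With H3K27me3 joined, the inside share was 59.4%, 43.0%, 35.8% and 27.3% in WT replicate 2, KO replicate 2, WT replicate 1 and KO replicate 1. The inside shares of the other pairs were recomputed by choice after seeing the data. The causes were not tested. Without read counts, depth could not be separated from absence in any list.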
